A study of Mus musculus with 12 samples.

Results

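The genes described are those whose symbols begin with Kmt, Kdm, Setd, Chd, Arid or Smarca to Smarce followed by a digit, which cover many histone lysine methyltransferases and demethylases and the catalytic and DNA-binding subunits of chromatin remodellers. They were chosen by symbol after Kmt2d had been seen lower in cortex of Reck knockout mice, leaving out Kdm5c, Kdm5d and Kdm6a, and number 62 of the 23983 entries in each deposited table. The samples are brain tissue of mice at postnatal day 0, in 4 groups of 3 libraries. The knockout groups, cortex and subcortex, are labelled as a vascular knockout (vKO) with the genotype Reck flex2/Δex1 plus Tie2Cre, which recombines in endothelial and blood lineages. Reck encodes a membrane protein that endothelial cells use with Gpr124 to sense Wnt7 ligands. The other groups, cortex and subcortex again, are labelled as wild type (WT), with no alleles given, and the strain of all 4 groups is labelled as mixed. Sex, pooling of animals and pairing of cortex with subcortex are not given in the labels.

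Histone lysine methyltransferases place methyl groups on histone tails and demethylases remove them. Methylation of histone H3 at lysine 4 marks active promoters and enhancers and is laid down by the Kmt2 and Setd1 enzymes inside COMPASS complexes, while methylation at lysine 27 is laid down by Polycomb repressive complex 2 and removed by Kdm6 enzymes. Remodellers of the BAF, ISWI and CHD families use ATP to slide or evict nucleosomes. In the developing brain BAF complexes exchange subunits as progenitors become neurons, and mutations of several of these genes in humans, among them KMT2D, ARID1B, CHD7 and CHD8, cause developmental disorders.

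Each deposited table holds 1 FPKM for a gene in each of its 2 groups, that is, fragments scaled to transcript length and to the mapped total, which the authors computed over the libraries of the group. No value per library was used, so no SD can be given, and library depth is unknown. Ratios are log2((vKO FPKM + 1)/(WT FPKM + 1)), so that negative values mean lower in vKO and changes of low genes are understated. A gene is written as called, risen or fallen only where the authors' deposited table gives a q-value under 0.05, and that test rests on 3 libraries a group that the labels do not tie to separate animals. Because the cortex value of Kmt2d led to the choice of genes, the cortex values are a description, and subcortex is the comparison that the choice did not use.

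The tables name their groups by letters alone, W and M with C or S, which were read as WT and vKO, cortex and subcortex. Reck, the targeted gene, does not check this reading: it stood at 3.23 FPKM in vKO cortex and 2.91 FPKM in WT cortex, and at 3.49 FPKM in vKO subcortex and 2.37 FPKM in WT subcortex. It was called in neither tissue (q = 0.639 in cortex and 0.333 in subcortex by the authors' deposited table). A value over the whole gene in whole tissue does not show whether single exons are deleted.

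All 6 markers of cortical excitatory neurons stood higher in cortex than in subcortex in either genotype. Neurod6, a transcription factor of cortical projection neurons, stood at 167.8 FPKM in vKO cortex and 98.3 in WT cortex, against 6.08 and 6.61 FPKM in vKO and WT subcortex. Tcf7l2, a transcription factor of the thalamus, stood at 33.2 FPKM in vKO subcortex and 37.0 in WT subcortex, against 1.07 and 4.71 FPKM in vKO and WT cortex, while Isl1 and Meis2 of the same marker list stood higher in cortex. The tissues are whole, so fewer cells of a type and less RNA per cell cannot be told apart in any value below.

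Across the 59 members that the authors tested in cortex, the median ratio was -0.21, beside 0.00 over all 13594 tested entries. Of these members 20 fell and 2 rose in the authors' deposited table, while 11.3% of all tested entries were called lower, 8.15% higher and 19.5% in either direction. The members are long genes: their median transcript length was 6363 bases, against 3179 bases over all tested entries, and 46 of the 59 exceeded that median. Cortex ratios were lower at greater transcript length over all tested entries (Spearman -0.55 across 13445 entries), and likewise across the members (Spearman -0.66, n = 59). These points share the same libraries, so the coefficients are descriptions.

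Each member was therefore set beside the tested entries nearest to it in transcript length, up to 100 that were no longer and up to 100 that were longer, and its length-relative ratio is its own ratio minus their median. On this scale the median of the 59 members in cortex was -0.06, with 34 below 0 and 25 above. Among entries of like length to the members 27.3% were called lower in cortex and 2.93% higher. Within 0.25 of the median of like-length entries lay 40 of the 59 members, while 11 lay further below and 8 further above. The share of like-length entries within 0.25 was not computed, so this count and those by role below are descriptions. Below the 5th percentile of their like-length entries lay 6 members in cortex, and above the 95th 4. By construction 5% of like-length entries lie beyond each of these bounds.

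**Figure D1:**
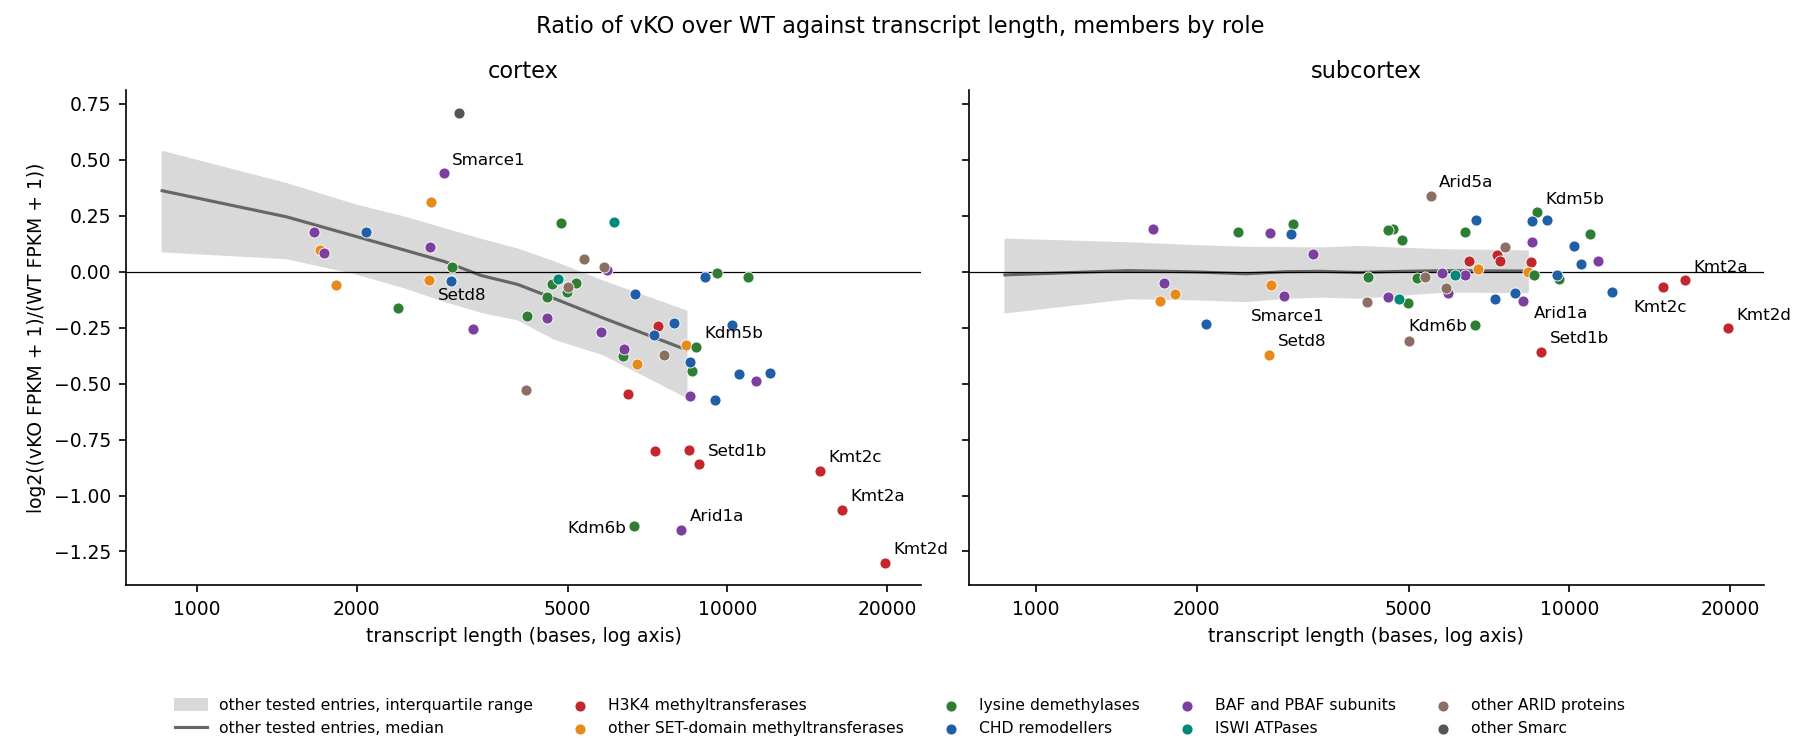
Ratio of vKO over WT (vertical axis, log2 with 1 added to FPKM) against transcript length (horizontal log axis, bases) in cortex and subcortex. Dots are members coloured by role, and the grey line and band give the median and interquartile range of the other tested entries in 10 length classes. In cortex the grey line goes from 0.36 in the shortest class to -0.35 in the longest, with Kdm6b and Arid1a below it and the longer Kmt2a and Kmt2d below and beyond its right end, while in subcortex it stays near 0.

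The methyltransferases of H3 lysine 4 were the role with the lowest cortex ratios. All 8 were below 0 in vKO cortex, with a median ratio of -0.83, and 7 fell in the authors' deposited table, where 49.8% of entries of like length were called lower. Their length-relative median was -0.49, with 7 of 8 below 0. Kmt2d, which places single methyl groups at enhancers and is mutated in human Kabuki syndrome, lies on chromosome 15 (98831669 to 98871204, mm10) and has 55 exons in its longest coding transcript of 19823 bases. It stood at 3.58 FPKM in vKO cortex and 10.3 FPKM in WT cortex, a ratio of -1.30. Its q of 0.000806 in the authors' deposited table is a floor, shared by all entries at the lowest p-value of the authors' Cuffdiff test, 5e-05. Kmt2a, Kmt2b, Kmt2c, Kdm6b and Arid1a are among these, so the q does not rank Kmt2d above them. Of the 113 tested entries nearest to it in length, 13 were longer, and none had a lower ratio. Their median was -0.60, which gives Kmt2d a length-relative ratio of -0.70.

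The promoters of Kmt2d and of 2 further genes that fell, Kmt2a and Arid1a, are shown because these genes lie furthest below entries of their length among those with a listed promoter. Each window is RefSeq sequence of build GRCm38.p6, minus strand and 300 bases long, with every CG dinucleotide in capitals. Those of Kmt2d and Kmt2a reach from upstream of the annotated gene start to just inside it. The windows lie at chr15:98871156-98871455 for Kmt2d, chr9:44881240-44881539 for Kmt2a and chr4:133753936-133754235 for Arid1a, the last being 1 of 2 windows listed for that gene. This Arid1a window lies inside the annotated gene. The other, chr4:133756720-133757019, spans the annotated start at 133756769, holds 22 CG dinucleotides and is not printed.
Kmt2d: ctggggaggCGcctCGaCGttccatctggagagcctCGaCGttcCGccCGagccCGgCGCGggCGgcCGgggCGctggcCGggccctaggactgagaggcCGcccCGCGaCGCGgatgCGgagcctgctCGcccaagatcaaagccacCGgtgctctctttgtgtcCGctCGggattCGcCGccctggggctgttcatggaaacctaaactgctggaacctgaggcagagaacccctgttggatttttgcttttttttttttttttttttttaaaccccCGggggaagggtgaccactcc
Kmt2a: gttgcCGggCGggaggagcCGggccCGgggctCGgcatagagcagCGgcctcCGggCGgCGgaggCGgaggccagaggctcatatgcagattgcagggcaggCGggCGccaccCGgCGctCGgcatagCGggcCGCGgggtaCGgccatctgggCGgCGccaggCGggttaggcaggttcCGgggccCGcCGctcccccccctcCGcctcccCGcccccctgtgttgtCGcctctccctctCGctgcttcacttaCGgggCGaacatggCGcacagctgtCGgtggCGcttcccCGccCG
Arid1a: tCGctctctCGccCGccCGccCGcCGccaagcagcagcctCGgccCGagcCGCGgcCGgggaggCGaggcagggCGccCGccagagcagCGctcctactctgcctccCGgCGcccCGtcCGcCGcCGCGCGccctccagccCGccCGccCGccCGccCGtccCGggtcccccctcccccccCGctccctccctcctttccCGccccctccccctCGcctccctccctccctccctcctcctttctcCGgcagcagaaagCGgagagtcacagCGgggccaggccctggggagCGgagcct

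The Kmt2d window holds 27 CG dinucleotides, and the Kmt2a window and the printed Arid1a window 36 each. The median over 58 windows of the 44 members found in the table was 27.5, beside 7 over all 32851 windows. The GC box letters GGGCGG, or CCGCCC on the other strand, occur in 75.9% of the members' windows (44 of 58) and in 35.7% of all windows. The TATA letters TATAAA, or TTTATA, occur in 3.45% of the members' windows and 13.6% of all windows. The ETS letters CCGGAA, or TTCCGG, occur in 29.3% of the members' windows and 14.9% of all windows, and CCAAT, or ATTGG, in 36.2% and 37.4%. These matches describe the letters and were not related to expression here.

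The other Kmt2 genes fell together with Kmt2d in cortex. Kmt2a, which maintains Hox gene expression and is rearranged in human leukaemia, stood at 7.33 FPKM in vKO cortex and 16.4 FPKM in WT cortex (ratio -1.06, length-relative -0.50). Kmt2c, the partner of Kmt2d at enhancers, stood at 12.7 FPKM in vKO cortex and 24.3 FPKM in WT cortex (ratio -0.89, length-relative -0.34). Kmt2b, the paralogue of Kmt2a, stood at 5.13 FPKM in vKO cortex and 9.63 FPKM in WT cortex (ratio -0.79, length-relative -0.49). All 3 share q = 0.000806 by the authors' deposited table. A lower ratio was held by 5 of 129 entries of like length for Kmt2a, 12 of 159 for Kmt2c and 12 of 200 for Kmt2b. Only 29 of the 129 were longer than Kmt2a and 59 of the 159 longer than Kmt2c.

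Kmt2e, a family member whose SET domain is not known to be active, stood at 16.4 FPKM in vKO cortex and 29.3 FPKM in WT cortex (ratio -0.80, length-relative -0.49). The enzymes of trimethylation at promoters fell too. Setd1b stood at 2.24 FPKM in vKO cortex and 4.88 FPKM in WT cortex (ratio -0.86, length-relative -0.50), and Setd1a at 3.78 FPKM in vKO cortex and 5.98 FPKM in WT cortex (ratio -0.55, length-relative -0.29). Setd7, a monomethyltransferase that also acts on other proteins and is not a COMPASS enzyme, was not called, at 6.71 FPKM in vKO cortex and 8.12 FPKM in WT cortex. Its ratio of -0.24 lay 0.04 above entries of its length.

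**Figure D2:**
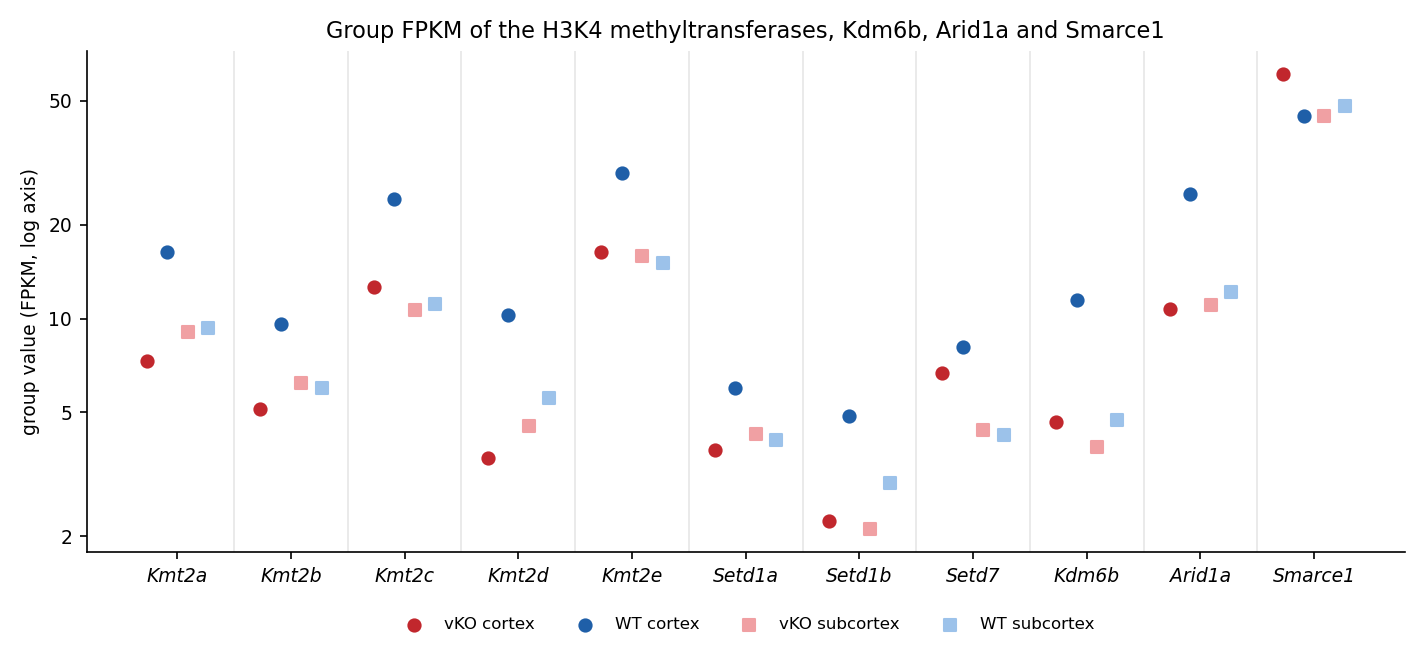
Group FPKM (vertical log axis) of the 8 H3 lysine 4 methyltransferases, Kdm6b, Arid1a and Smarce1 in vKO cortex, WT cortex, vKO subcortex and WT subcortex, 1 value per group and no error bar because none can be had. For the 8 methyltransferases, Kdm6b and Arid1a the WT cortex value is the highest of the 4, and for Smarce1 the vKO cortex value of 61.2 is.

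Of the other 6 SET-domain methyltransferases 5 lay within 0.25 of the median of their length class in cortex. Of the 6 1 fell and none rose in cortex in the authors' deposited table, where 14.4% of entries of like length were called lower, and the median ratio was -0.05 (length-relative -0.09). Setd5, a SET-domain protein mutated in human intellectual disability, stood at 20.2 FPKM in vKO cortex and 27.2 FPKM in WT cortex (ratio -0.41, length-relative -0.18). Setd2, the enzyme of trimethylation at H3 lysine 36, a name picked for its role once the values were known, was not called, at 24.2 FPKM in vKO cortex and 30.7 FPKM in WT cortex. Setd3, a histidine methyltransferase of actin, had the highest level of these genes and was not called, at 49.4 FPKM in vKO cortex and 39.6 FPKM in WT cortex (length-relative 0.26).

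Lysine demethylases lay on either side of their length class in cortex: 9 of 14 were within 0.25 of its median, 2 further below and 3 further above. Of the 14 tested 3 fell and none rose in cortex in the authors' deposited table, where 25.0% of entries of like length were called lower, and their length-relative median was 0.01. Kdm6b, which removes methyl groups from H3 lysine 27, lies on chromosome 11 (69398508 to 69413675, mm10). It stood at 4.67 FPKM in vKO cortex and 11.5 FPKM in WT cortex, a ratio of -1.14 (q = 0.000806 by the authors' deposited table). Its length-relative ratio of -0.91 was the lowest of the 59 members, and none of its 200 tested entries of like length had a lower ratio. Kdm2a and Kdm3b, demethylases of H3 lysine 36 and lysine 9, fell with length-relative ratios of -0.11 and -0.14.

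The 3 further above were Kdm5a, Kdm3a and Kdm7a, and Kdm8 was the other one further below, at 1.17 FPKM in vKO cortex and 1.43 FPKM in WT cortex (length-relative -0.28). Kdm5a, a demethylase of H3 lysine 4 with a transcript of 10944 bases, likewise picked with its value known, stood at 10.9 FPKM in vKO cortex and 11.1 FPKM in WT cortex (length-relative 0.42). Its ratio exceeded that of 190 of 200 entries of like length. Kdm3a, a demethylase of H3 lysine 9, stood at 17.7 FPKM in vKO cortex and 15.1 FPKM in WT cortex (length-relative 0.35). Kdm7a, a demethylase of H3 lysine 9 and lysine 27, stood at 5.94 FPKM in vKO cortex and 5.97 FPKM in WT cortex (length-relative 0.33). Kdm5b, the paralogue of Kdm5a, stood at 37.0 FPKM in vKO cortex and 46.9 FPKM in WT cortex and was not called (length-relative 0.02). Kdm1a, the flavin-dependent demethylase LSD1 that acts in CoREST complexes, was the most abundant demethylase, at 71.4 FPKM in vKO cortex and 70.4 FPKM in WT cortex.

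Of the 11 CHD entries 10 lay within 0.25 of the median of their length class in cortex. Of the 11 4 fell and none rose in the authors' deposited table, where 38.0% of entries of like length were called lower, and the median ratio was -0.24 against a length-relative median of 0.04. One of the 11, Chd3os, is a neighbour of Chd3 that the RefSeq table lists as Rnf227 and that belongs here by its symbol alone. Without it the length-relative median of the 10 remodellers was again 0.04. Chd5, a neuronal subunit of NuRD complexes, stood at 17.3 FPKM in vKO cortex and 26.3 FPKM in WT cortex (length-relative -0.22).

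Chd2 lay furthest from its length class and was not called, at 13.0 FPKM in vKO cortex and 13.2 FPKM in WT cortex (length-relative 0.34, above 176 of 200 entries of like length). Chd6, Chd8 and Chd9 fell with length-relative ratios of -0.06, -0.09 and 0.05. Chd8, a remodeller often mutated in human autism, stood at 18.7 FPKM in vKO cortex and 25.1 FPKM in WT cortex. Chd3 and Chd4, the main ATPases of NuRD, were the most abundant and were not called. Chd3 stood at 83.8 FPKM in vKO cortex and 102.1 FPKM in WT cortex, and Chd4 at 50.8 FPKM in vKO cortex and 54.4 FPKM in WT cortex.

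Subunits of BAF and PBAF complexes went both ways in cortex. Of 12, 3 fell and 1 rose in the authors' deposited table, where 20.3% of entries of like length were called lower, and their length-relative median was -0.10. Arid1a, the DNA-binding subunit that defines canonical BAF (chromosome 4, 133679008 to 133756769, mm10), stood at 10.8 FPKM in vKO cortex and 25.2 FPKM in WT cortex. Its ratio was -1.15 (q = 0.000806 by the authors' deposited table), its length-relative ratio was -0.85, and 1 of 200 entries of like length was lower. Its alternative Arid1b stood at 11.6 FPKM in vKO cortex and 16.6 FPKM in WT cortex (length-relative -0.04), and Arid2, which defines PBAF, at 12.2 FPKM in vKO cortex and 18.3 FPKM in WT cortex (length-relative -0.24).

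Smarce1, the HMG-box subunit of BAF (chromosome 11, 99209047 to 99231017, mm10), was the protein-coding member that rose. It stood at 61.2 FPKM in vKO cortex and 44.8 FPKM in WT cortex, a ratio of 0.44 (q = 0.0184 by the authors' deposited table). Its length-relative ratio was 0.42, and 190 of 200 entries of like length had a lower ratio. The alternative ATPases Smarca4 (Brg1) and Smarca2 (Brm) were not called. Smarca4 stood at 54.0 FPKM in vKO cortex and 68.9 FPKM in WT cortex, and Smarca2 at 50.4 FPKM in vKO cortex and 50.1 FPKM in WT cortex. Smarcd3, the neuronal variant Baf60c, stood at 66.6 FPKM in vKO cortex and 62.9 FPKM in WT cortex and was not called either.

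Neither ISWI ATPase was called in cortex, where 16.8% of entries of like length were called lower. Smarca5 (Snf2h) stood at 28.1 FPKM in vKO cortex and 23.9 FPKM in WT cortex (length-relative 0.45), and the X-linked Smarca1 (Snf2l) at 22.7 FPKM in vKO cortex and 23.2 FPKM in WT cortex. Smarca5-ps, a processed pseudogene of Smarca5, rose in the authors' deposited table, at 1.24 FPKM in vKO cortex and 0.369 FPKM in WT cortex. Its reads may be shared with Smarca5, so its level is uncertain. Of the 5 tested ARID proteins outside BAF 2 fell, where 20.1% of entries of like length were called lower. Arid3b, a transcription factor, stood at 0.986 FPKM in vKO cortex and 1.87 FPKM in WT cortex (length-relative -0.45), and Arid5b at 4.62 FPKM in vKO cortex and 6.27 FPKM in WT cortex (length-relative -0.10). The deposited span of Arid3a is shared by 48 entries, and its level is therefore less certain. Spans shared by 2 entries are held by Arid1a, Kmt2e, Setd7, Chd2, Chd4, Chd8, Kdm5a and Kdm7a, among others. The same limit applies to their levels.

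**Figure D3:**
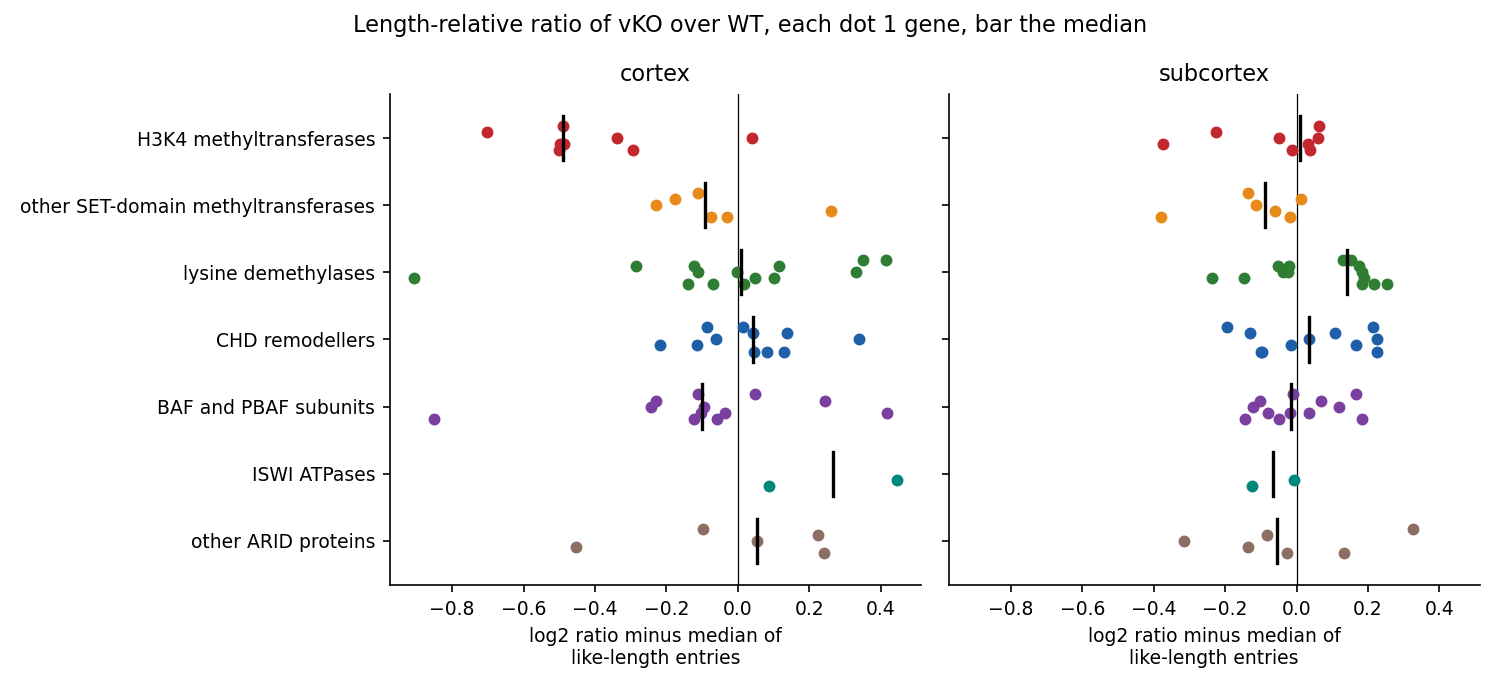
Length-relative ratio of vKO over WT (horizontal axis, log2) for each tested member by role, in cortex and subcortex, with a bar at the median of the role. The H3 lysine 4 methyltransferases have a median of -0.49 in cortex and 0.01 in subcortex, and Kdm6b and Arid1a stand apart on the left in cortex at -0.91 and -0.85.

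The same genes were compared in subcortex, whose values had no part in the choice. None of the 59 tested members was called by the authors' Cuffdiff test, whose calls cover 0.714% of all tested entries (0.262% lower and 0.451% higher) and, among entries of like length, 0.103% lower and 0.44% higher. With an unadjusted p-value under 0.05 in the authors' deposited table stood 4 of the 59, beside 6.31% of all tested entries, and no other test could be run on group values. The median ratio of the members was -0.01, beside -0.00 over all 13735 tested entries, and their length-relative median was -0.02. The Spearman coefficient of ratio and transcript length in subcortex was 0.02 across 13593 tested entries and 0.08 across the 59 members.

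The H3 lysine 4 methyltransferases as a role showed no common direction in subcortex: 4 of 8 ratios lay below 0 and 4 above, with a median of 0.00. Kmt2d stood at 4.51 FPKM in vKO subcortex and 5.56 FPKM in WT subcortex, a ratio of -0.25 (p = 0.0807, q = 0.912 by the authors' deposited table). Setd1b stood at 2.10 FPKM in vKO subcortex and 2.98 FPKM in WT subcortex, a ratio of -0.36 (p = 0.008, q = 0.353 by the authors' deposited table). Kdm6b stood at 3.87 FPKM in vKO subcortex and 4.73 FPKM in WT subcortex (ratio -0.24, q = 0.956 by the authors' deposited table). These 3, with Arid4a and Setd8, were the 5 of 59 members below the 5th percentile of entries of like length in subcortex, while 4 were above the 95th, Arid5a, Chd2, Chd8 and Kdm5b. By construction 5% of the entries of like length lie beyond each of these bounds, and none of these members passed the adjusted test.

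The other Kmt2 and Setd1 genes were nearly level in subcortex. Kmt2a stood at 9.06 FPKM in vKO subcortex and 9.32 FPKM in WT subcortex, and Kmt2b at 6.19 FPKM in vKO subcortex and 5.97 FPKM in WT subcortex. Kmt2c stood at 10.6 FPKM in vKO subcortex and 11.2 FPKM in WT subcortex, and Kmt2e at 15.9 FPKM in vKO subcortex and 15.0 FPKM in WT subcortex. Setd1a stood at 4.26 FPKM in vKO subcortex and 4.08 FPKM in WT subcortex. Arid1a stood at 11.0 FPKM in vKO subcortex and 12.2 FPKM in WT subcortex, and Smarce1 at 44.7 FPKM in vKO subcortex and 48.2 FPKM in WT subcortex. The difference between the tissues in the effect of genotype was not tested, since no value per library was used.

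Outside this role, Setd8 (now Kmt5a), which places the single methyl group on H4 lysine 20, stood at 7.88 FPKM in vKO subcortex and 10.5 FPKM in WT subcortex. Its ratio was -0.37 (p = 0.0251, q = 0.618 by the authors' deposited table). Arid5a, an RNA-binding protein that stabilises cytokine transcripts and was too low to be tested in cortex, stood at 1.23 FPKM in vKO subcortex and 0.758 FPKM in WT subcortex. Its ratio was 0.34 (p = 0.00435, q = 0.256 by the authors' deposited table). Arid4a, a partner of the retinoblastoma protein, stood at 8.04 FPKM in vKO subcortex and 10.2 FPKM in WT subcortex (p = 0.0396, q = 0.742 by the authors' deposited table). Lysine demethylases had the highest median of the roles with more than 2 members there, 0.15, with 8 of 14 above 0, among them Kdm5b at 26.4 FPKM in vKO subcortex and 21.8 FPKM in WT subcortex. None of these differences passed the adjusted test.

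The 11 CHD, 12 BAF and 2 ISWI entries all lay within 0.25 of the median of their length class in subcortex, although Chd8 and Chd2 exceeded 194 and 192 of their 200 entries of like length. Chd8 stood at 19.2 FPKM in vKO subcortex and 16.2 FPKM in WT subcortex (length-relative 0.21). Chd2, which is mutated in human epilepsy, stood at 13.4 FPKM in vKO subcortex and 11.3 FPKM in WT subcortex, and Chd4 at 49.0 FPKM in vKO subcortex and 41.6 FPKM in WT subcortex, each with a length-relative ratio of 0.23. The BAF subunits furthest from their length class were Smarcb1, the core subunit lost in human rhabdoid tumours, and Smarcd2, with length-relative ratios of 0.18 and 0.17. Setd6, a methyltransferase of non-histone proteins such as RelA, had a length-relative ratio of -0.14, and Arid4b, the most abundant ARID protein outside BAF, of -0.08. The ISWI ATPases Smarca1 and Smarca5 stood at -0.13 and -0.01 on this scale. Of the 59 members 54 lay within 0.25 of the median of like-length entries, 3 further below and 2 further above. The share of like-length entries within 0.25 was not computed in subcortex either, so these counts are descriptions.

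Levels were also compared between tissues within a genotype, over the 58 members tested in both tables. In vKO 36 of the 58 were higher in cortex than in subcortex, with a median log2 ratio of cortex over subcortex of 0.08. In WT it was 46 of 58, with a median of 0.38. Over all 13035 entries with a length that were tested in both tables, 6123 were higher in cortex in vKO (median -0.02). In WT 5948 of the 13035 were higher in cortex (median -0.05). The 8 H3 lysine 4 methyltransferases had a median of -0.05 in vKO, with 4 of 8 higher in cortex, and of 0.77 in WT, with 8 of 8 higher in cortex. For Kmt2d the values were 3.58 FPKM in cortex and 4.51 FPKM in subcortex of vKO, and 10.3 FPKM in cortex and 5.56 FPKM in subcortex of WT.

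The trend with transcript length showed the same layout. Over other entries tested in both tables, the median ratio of cortex over subcortex in vKO was 0.02 in the shortest of 10 length classes and -0.09 in the longest. In WT it was -0.36 in the shortest class and 0.25 in the longest. The tables may have been normalized separately, and these ratios share their group values with those of vKO over WT, so they add no independent data.

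**Figure D4:**
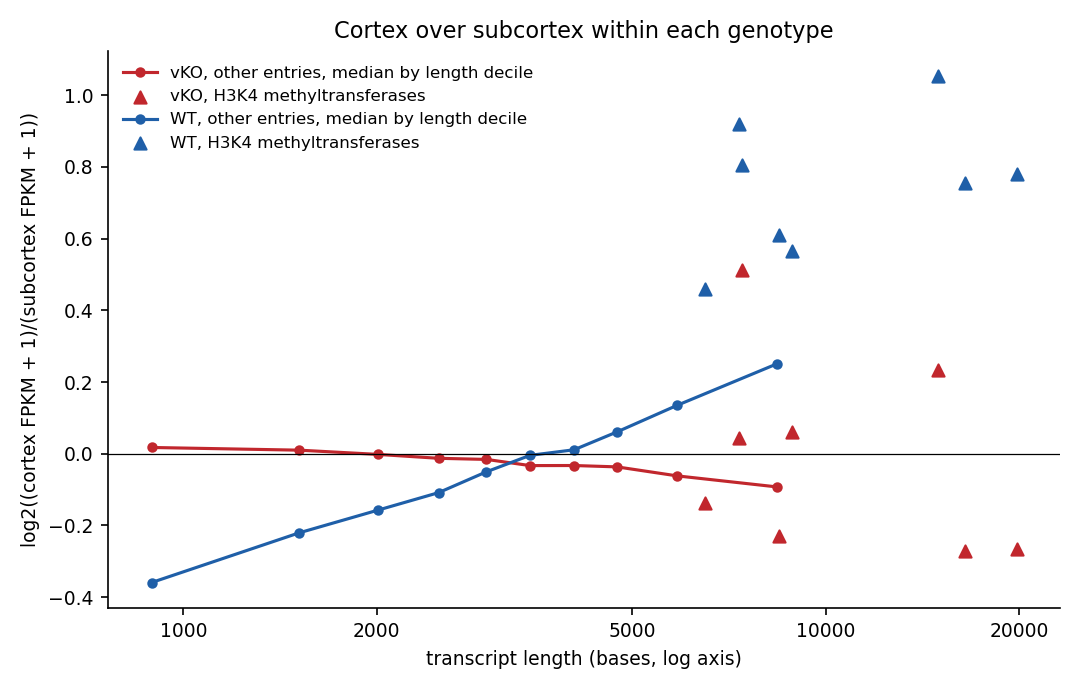
Cortex over subcortex (vertical axis, log2 with 1 added to FPKM) against transcript length (horizontal log axis, bases) within vKO and within WT. Lines join the medians of other entries in 10 length classes and triangles are the 8 H3 lysine 4 methyltransferases. The vKO line ends at -0.09 and its triangles lie between -0.27 and 0.51, while the WT line climbs to 0.25 and its triangles lie between 0.46 and 1.05.

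Partners and neighbours of these genes were read from 8 lists with 106 genes outside the members. Of 105 tested in cortex 20 fell and 2 rose in the authors' deposited table, with a median ratio of -0.10 and a median transcript length of 4060 bases, beside 11.3% lower and 8.15% higher over all tested entries. In subcortex none of 103 tested was called by the authors' Cuffdiff test, and 3 had an unadjusted p-value under 0.05 in the authors' deposited table. Among the 13 shared subunits of COMPASS 2 fell and 1 rose in cortex, where 11.1% of entries of like length were called lower and 7.5% higher, with a length-relative median of -0.12. Ncoa6, a subunit of the Kmt2c and Kmt2d complexes, stood at 8.25 FPKM in vKO cortex and 17.1 FPKM in WT cortex, and Hcfc1, a subunit of several COMPASS complexes, at 13.4 FPKM in vKO cortex and 21.1 FPKM in WT cortex. Dpy30, a small core subunit with a transcript of 789 bases, rose and stood at 57.2 FPKM in vKO cortex and 40.3 FPKM in WT cortex.

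None of the 10 tested genes of Polycomb repressive complex 2 was called in cortex, and 1 of them had an unadjusted p-value under 0.05 in the authors' deposited table, where 32.1% of all tested entries had one. Among entries of like length to this list 8.2% were called lower. Jarid2 of the same list carries the status HIDATA in both tissues, which marks a locus that was skipped for its number of reads, so its listed values are not levels. The histone chaperones Rbbp7 and Rbbp4, which NuRD also holds, stood at 60.3 and 53.8 FPKM in vKO cortex and 50.5 and 43.0 FPKM in WT cortex. Of the 9 histone acetyltransferases 3 fell: Ep300 stood at 7.08 FPKM in vKO cortex and 14.8 FPKM in WT cortex, Crebbp at 14.4 FPKM in vKO cortex and 28.4 FPKM in WT cortex, and Kat6a at 14.7 FPKM in vKO cortex and 25.9 FPKM in WT cortex. Ep300 and Crebbp are the acetyltransferases of active enhancers. Among entries of like length to the 9, 23.7% were called lower, and their length-relative median was -0.09.

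Of 23 other histone methyltransferases 5 fell and none rose, where 22.1% of entries of like length were called lower, with a length-relative median of 0.02. Ash1l, an enzyme of H3 lysine 36, stood at 13.9 FPKM in vKO cortex and 23.0 FPKM in WT cortex, Dot1l, which methylates the globular core of H3, at 5.67 FPKM in vKO cortex and 9.67 FPKM in WT cortex, and Prdm2 at 9.43 FPKM in vKO cortex and 13.3 FPKM in WT cortex. Of 7 other JmjC proteins 3 fell, Phf8, Phf2 and Jmjd1c, with ratios of -0.54, -0.47 and -0.39 and a length-relative median of the list of -0.10, where 16.5% of entries of like length were called lower. Of 17 further partners of BAF 2 fell, Gltscr1 with a ratio of -0.85 and the neuronal transcription factor Bcl11b with -0.60, where 10.6% of entries of like length were called lower, and the length-relative median was 0.00. Of 9 further partners of NuRD 1 fell, Gatad2b with -0.61, where 8.33% of entries of like length were called lower, and the length-relative median was -0.11. Of 17 other remodelling genes 4 fell and 1 rose, where 33.3% of entries of like length were called lower, with a length-relative median of 0.06. The lowest were Ep400, Bptf and Baz2a with ratios of -0.71, -0.60 and -0.60.

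The entries whose 4 group values were most like those of Kmt2d were BC068157, Fam65a, Gal3st3, Pik3c2b and C2cd3, by Euclidean distance of log2(FPKM + 1) over 13109 entries tested in both tables. Their distances were between 0.21 and 0.43. BC068157 stood at 4.08 FPKM in vKO cortex and 10.4 FPKM in WT cortex, and at 4.83 FPKM in vKO subcortex and 6.14 FPKM in WT subcortex. Where a length was found, their transcripts had between 2421 and 7928 bases.

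Other measures moved with genotype beside these genes. GC content varied with the length-relative ratios of the members in cortex (Spearman -0.53, n = 59). With the ratios of all 13445 tested entries that had a length, the cortex coefficient was 0.00. Each member's ratio was therefore also set against the 100 entries nearest in GC content among the 400 nearest in length. On that scale the H3 lysine 4 methyltransferases had a median of -0.36 in cortex, Kmt2d -0.65, Kdm6b -0.80, Arid1a -0.71 and Smarce1 0.38. In subcortex GC content moved with the ratios of all tested entries (Spearman 0.31), while across the 59 members the coefficient was -0.02. Kmt2d, Setd1b and Kdm6b stood at -0.30, -0.43 and -0.33 in subcortex on the scale of length and GC content.

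Marker genes of other cell types moved in cortex as well. Of 6 microglial genes 4 rose in the authors' deposited table, with a summed level of 87.6 FPKM in vKO cortex and 35.3 FPKM in WT cortex. The list is short in transcript length (median 1064 bases), and 22.8% of entries of like length were called higher. Csf1r and P2ry12 were not called, and P2ry12 stood lower, at 2.06 FPKM in vKO cortex and 2.41 FPKM in WT cortex. Of 6 genes of dividing cells 4 rose, with sums of 148.0 FPKM in vKO cortex and 105.4 FPKM in WT cortex. For this list 5.33% of entries of like length were called higher. Of 6 endothelial genes 2 fell, with sums of 50.2 FPKM in vKO cortex and 76.8 FPKM in WT cortex. Their entries of like length were called lower in 10.1%. The 2 that fell were Cldn5, at 24.6 FPKM in vKO cortex and 46.8 FPKM in WT cortex, and Kdr, at 5.30 and 11.0 FPKM. Cdh5, Tek and Erg were not called and stood slightly lower in vKO cortex. Pecam1 was not called and stood higher, at 8.47 FPKM in vKO cortex and 6.49 FPKM in WT cortex. Of the 3 erythroid genes found 1 rose, with sums of 36.2 FPKM in vKO cortex and 6.05 FPKM in WT cortex. Only 1 of them was tested, and 11.0% of entries of like length to it were called higher. Of 6 genes of cortical excitatory neurons 2 fell and 1 rose, with sums of 284.2 FPKM in vKO cortex and 248.7 FPKM in WT cortex. Among entries of like length to these 13.9% were called lower and 6.25% higher. Without Neurod6, which rose, the other 5 summed to 116.4 FPKM in vKO cortex and 150.4 FPKM in WT cortex. Of the 4 tested genes of subcortical neurons 2 fell, and the 6 summed to 67.0 FPKM in vKO cortex and 75.8 FPKM in WT cortex. For the tested ones 8.0% of entries of like length were called lower. In subcortex 2 endothelial genes rose, Cdh5 and Pecam1, where 0.75% of entries of like length were called higher. No gene of the other 5 cell type lists was called there. None of these markers was listed at 0 in either cortex group, and their part in the members' values was not tested.

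Sex-linked genes also moved, in both tissues, and the labels give no sex. Xist, the RNA of the inactive X, stood at 18.6 FPKM in vKO cortex and 0.0417 FPKM in WT cortex, and at 10.2 FPKM in vKO subcortex and 0.0369 FPKM in WT subcortex. Eif2s3y, a Y-linked gene, stood at 15.8 FPKM in vKO cortex and 30.4 FPKM in WT cortex, and at 13.3 FPKM in vKO subcortex and 27.6 FPKM in WT subcortex. The part of sex in the members' values cannot be told apart from that of genotype.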

How the data were processed

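Total RNA of frozen cortex and subcortex was extracted and made into stranded total RNA libraries, per the labels' protocols. Per the submitters' processing notes, the build was mm10 and the tools were Cuffdiff, Cufflinks 2.2.1 and HISAT2 2.0.1, whose roles are not given. The annotation and the use of strand in counting are not given in the sources used here. The 2 deposited tables give 1 FPKM per group and entry, with the authors' p-values and q-values, per the file headers. The letters W and M that name the groups in the tables were read as WT and vKO. The deposited q-values equal a Benjamini-Hochberg adjustment over the entries marked as tested to within 5.2e-07. The deposited log2 column was not used because some cells held error text.

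Members and lists were chosen with earlier results of these data known. The foreseen fits on values per library were replaced by the authors' calls, and no SD, interaction or left-out library was computed. Transcript length and GC content came from GENCODE M21 on the same build, for the longest protein-coding transcript or otherwise the longest one. Setd8 and Chd3os were matched through current symbols in the RefSeq table, and 62 of 62 members had a length. Of the 62, 58 were tested in both tables, Arid3c and Kdm4d in neither, Arid5a in subcortex alone and Smarca5-ps in cortex alone. The removal of the length trend was tried on simulated data, whose outcome is not reported here. No accuracy is therefore claimed for small length-relative values.

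Named genes are all members called in either tissue and, per role, the 2 with the largest absolute length-relative ratio in subcortex and the most abundant. Per list they are up to 3 called genes with the lowest q or otherwise the 2 most abundant. Other names were picked after their values were seen. Calculations used Python 3.11.15, pandas 2.3.3 and numpy 2.4.6. Alternatives were pseudocounts of 0.1 and 0, other filters, a q-value under 0.01, a fold minimum of 1.5, leaving out Kmt2d, centring on all tested entries, other length classes, genomic span, and length with FPKM or GC content; the GC matching within length and leaving out Chd3os and Smarca5-ps or Neurod6 were added after seeing the data.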

Additional observations from a re-analysis of the deposited data

How the results depend on the processing

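Values that answer a comparison stayed near their size in 90 recomputations under other settings and moved in 8. For medians, near meant within 0.1, and a change of sign was not counted for these values. The subcortex length-relative median of the H3 lysine 4 methyltransferases ranged from -0.065 to 0.033 and so changed sign. Values of single named genes stayed within 0.1 in 1006, moved in 95 and reversed in 9, reversals being counted for called genes. No member was called in subcortex under any call rule tried. In cortex the counts of members called were 22 in all, 20 lower and 2 higher. Asking also for a fold of at least 1.5 with 1 added left 9 in all, 8 lower and 1 higher, by the rule's own construction. Only 1 was called higher with a q-value under 0.01, and under that rule as under the fold rule it was Smarca5-ps. Smarce1 (q = 0.0184 by the authors' deposited table) was called higher under neither. Without Chd3os and Smarca5-ps likewise 1 was called higher, Smarce1, since Smarca5-ps is itself 1 of the 2. The median length-relative ratio of the H3 lysine 4 methyltransferases in cortex was -0.49, and became -0.75 with genomic span in place of transcript length, -0.37 in cells of length and GC content, and -0.36 against the 100 entries nearest in GC content of the 400 nearest in length; the last was chosen after seeing the data, and the cause was not tested.

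Length-relative ratios changed sign under at least 1 setting for 4 called and 10 uncalled named genes in cortex and for 8 uncalled named genes in subcortex. Among the uncalled ones in cortex, Chd3 ranged from -0.32 to 0.25, Chd4 from -0.12 to 0.23 and Kdm5b from -0.27 to 0.077, so no direction is read for them. Of the called ones, Chd9 (0.05) became -0.022 with no filter, -0.042 in 20 length classes, -0.23 with genomic span, -0.036 in cells of length and mean FPKM, and -0.18 in cells of length and GC content. Chd8 (-0.09) became 0.0085 in 20 length classes and 0.025 in cells of length and GC content. Arid5b (-0.10) became 0.012 in cells of length and GC content, and Arid1b (-0.04) became 0.16 against entries near in GC content and length. The cause was not tested.

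No paired analysis was possible because the deposited values used here are 1 per group. For the same reason no library was left out and no other count model was run. Library depth is unknown, so no counting interval can be given, and differences of genes near 1 FPKM are the least certain. Genes longer than Kmt2d are few, so its length class holds mostly shorter ones.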
